A study of Mus musculus with 10 samples.

Results

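The cytosolic ribosomal protein genes encode the proteins of the 40S and 60S ribosomal subunits. They were chosen by symbol, as Rpl or Rps followed by a number and at most one of the letters a, l, x or y, together with Rplp0, Rplp1, Rplp2 and Rpsa, without kinase, binding protein and -ps symbols, and with a summed count of at least 50 over all libraries. Of 21956 genes listed, 81 had such a symbol and 79 reached the minimum, 32 of the 40S and 47 of the 60S subunit. Rpl39l, with a summed count of 45, lay just below it and Rps4l, with 1699, was the lowest member above it. Rpl10l was listed at 0 in every library. The rule leaves out Rps3a1, Rpl22l1, Rpl7l1 and Rpl36al, whose symbols end otherwise, and Fau and Rack1, which also belong to the ribosome.

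Poly(A) RNA of the gastrocnemius, a calf muscle made mostly of fast fibres, was sequenced in 5 libraries labelled HLI and 5 labelled Sham, all from mice of genotype WT. HLI is read here as hindlimb ischaemia, an expansion absent from the labels, and the time after surgery, the age, sex and strain of the mice are not given in the labels. The labels do not tie libraries to individual animals. P-values therefore rest on the spread between these libraries, which may be technical. Estimated counts summed to between 16556385 and 22136299 per library. The 18 fast fibre markers summed to 99145 to 170319 TPM (a length-scaled share of each library) in HLI and to 149894 to 199972 TPM in Sham, so the defining genes of the labelled tissue were abundant in every library. One library of each group went against its label in the embryonic and neonatal myosin genes Myh3 and Myh8, which new fibres express. Myh3 had 2.54, 33.3, 172, 45.3 and 25.8 TPM in HLI replicates 1 to 5, against 50.0, 1.12, 1.67, 1.31 and 1.32 TPM in Sham replicates 1 to 5, and Myh8 was likewise low in HLI replicate 1 and high in Sham replicate 1. HLI replicate 1 lay with 4 Sham libraries and Sham replicate 1 with 4 HLI libraries in these 2 genes. Other marker lists went both ways. Endothelial markers summed to 788 TPM in HLI replicate 1 and 1060 TPM in Sham replicate 1. In the same order, lymphocyte and NK cell markers summed to 8.81 and 13.8 TPM. New fibre and myoblast markers summed to 237 and 302 TPM, and pericyte and smooth muscle markers to 493 and 566 TPM. In each of these lists the HLI median was the higher. Macrophage, proliferating cell and erythroid markers ran as the labels say. HLI replicate 1 had 4822 TPM of macrophage, 336 TPM of proliferating cell and 9611 TPM of erythroid markers, against 2120, 126 and 1885 TPM in Sham replicate 1, and exceeded every Sham library in all 3 lists. The labels were kept, and results are also given with both libraries numbered 1 left out, a setting chosen after seeing the data.

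Each ribosome carries mostly a single copy of each of its proteins, and cells keep the mRNAs of these genes in step. In mammals nearly all of them begin with a run of pyrimidines, the 5′ terminal oligopyrimidine or TOP motif, through which mTORC1 and LARP1 set their translation together, and MYC raises the transcription of many. Skeletal muscle departs from the general ribosome in one known place: adult fibres make RPL3L, a paralog of RPL3 confined to heart and skeletal muscle, in place of much of the RPL3 found in other cells.

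Rpl3l and Rpl3 stood at opposite ends of the family's order of fold changes, so a stretch of each open reading frame around their longest shared run is shown, taken from the GENCODE M21 transcripts of Rpl3l (chromosome 17) and Rpl3 (chromosome 15). Capitals mark bases identical at the same place, and both lines cover bases 125 to 184 of the frame, counted from 1 at its first base.
Rpl3l: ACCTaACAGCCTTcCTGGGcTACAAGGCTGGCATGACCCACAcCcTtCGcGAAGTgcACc
Rpl3: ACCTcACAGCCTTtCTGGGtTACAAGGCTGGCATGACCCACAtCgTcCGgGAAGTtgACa
In this window 50 of 60 bases were identical and 10 differed. The longest unbroken run that the longest transcripts share was 22 bases, and over the whole frames 899 of 1208 aligned bases were identical (74.4%). No run of 50 bases of Rpl3l occurred in the transcripts of any other gene. Rpl3 shared 67.1% of its runs of 50 bases with 26 other genes, led by the pseudogene Rpl3-ps1, and none of them with a gene listed in the deposited table.

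RefSeq promoters (build GRCm38.p6) matched 58 of the 79 members. The members at the low and the high end of the HLI over Sham order that had an entry are shown with 2 others of the family, from 70 bases before to 30 bases after the annotated start. Capitals mark CCGGAAG, an ETS factor motif on either strand, CTTTC, a pyrimidine run on the sense strand, or CAGCTG, an E-box. All windows shown hold such a match. Among windows not shown, those of Rps6, Rps4x and Rpl22 held none, and that of Rps27 held CTTTC.
Rpl3l, chr17:24727756-24727855, plus strand: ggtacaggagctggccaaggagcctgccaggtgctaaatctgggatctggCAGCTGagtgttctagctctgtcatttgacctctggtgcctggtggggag
Rps27l, chr9:66946016-66946115, plus strand: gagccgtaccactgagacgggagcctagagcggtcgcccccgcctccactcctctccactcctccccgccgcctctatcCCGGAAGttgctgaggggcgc
Rplp2, chr7:141447581-141447680, plus strand: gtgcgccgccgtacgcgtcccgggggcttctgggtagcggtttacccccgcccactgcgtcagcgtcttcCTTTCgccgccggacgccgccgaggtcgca
Rpl13a, chr7:45128716-45128815, minus strand: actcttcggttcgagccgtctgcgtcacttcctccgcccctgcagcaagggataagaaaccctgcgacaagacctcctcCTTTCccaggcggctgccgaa
Rps7, chr12:28635924-28636023, minus strand: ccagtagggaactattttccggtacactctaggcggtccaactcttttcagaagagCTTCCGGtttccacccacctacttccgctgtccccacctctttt
Over the whole 300-base promoters, CCGGAAG on either strand was found in 23 of the 58 members (39.7%) and in 11.9% of 17492 promoters of protein-coding genes. CTTTC on the sense strand was found in 36 members (62.1%) against 33.0% of all promoters, and the longer CTCTTTC, which contains it, in 12 (20.7%) against 3.71%. AAGATGG on either strand, a YY1 motif, was found in 9 members (15.5%) against 6.35%, and TATAAA on the sense strand in 5 (8.62%) against 8.99%. CAGCTG, which reads the same on both strands, was found in 3 members (5.17%), Rpl3l among them, against 15.1%. The MEF2 motif CTAAAAATA was found in 0 of the 58 on either strand, against 0.394% of all promoters. These are matches of letters in one window per gene and show no binding.

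No ribosomal protein gene was called different between HLI and Sham, and the median of the family lay near 0 on the count scale. HLI was compared with Sham by edgeR's quasi-likelihood test on counts scaled by TMM, with Benjamini-Hochberg adjustment over 13404 genes. All 79 members passed the filter on low counts and 0 were called at an adjusted p under 0.05, as for the whole table, in which 0 genes were called (0% of those tested). At an unadjusted p under 0.05 the members were 2, Rpl3 and Rps4l, whereas 2262 of all genes (16.9%) passed that mark. DESeq2 called 42 of all genes and 0 members. With both libraries numbered 1 left out, edgeR called 54 of all genes and 0 members, and the members' median was -0.01. HLI over Sham had a median log2 fold change of -0.03 over the members and 0.03 over all genes tested, with 36 members above 0 and 43 below. The 40S members had a median of -0.02 and the 60S members of -0.03.

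The members also scattered little around that median. Their fold changes had an SD of 0.14 on the log2 scale, against 0.42 over all genes, and 71 of the 79 (89.9%) lay within 0.2 of 0, against 46.1% of all genes. A small scatter was not particular to the members. The 78 mitochondrial ribosomal protein genes had an SD of 0.12, around a median of -0.18, with 57.7% within 0.2 of 0. In 0 members did the 5 HLI libraries all lie on one side of the 5 Sham libraries, where 0.776% of all genes had every HLI library above and 0.873% every HLI library below. Leaving out Sham replicate 3 gave a median of -0.11 over the members, leaving out Sham replicate 4 gave 0.03 and leaving out HLI replicate 4 gave 0.02. Dropping HLI replicate 2 gave -0.06, and dropping Sham replicate 2 gave -0.05.

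**Figure D1:**
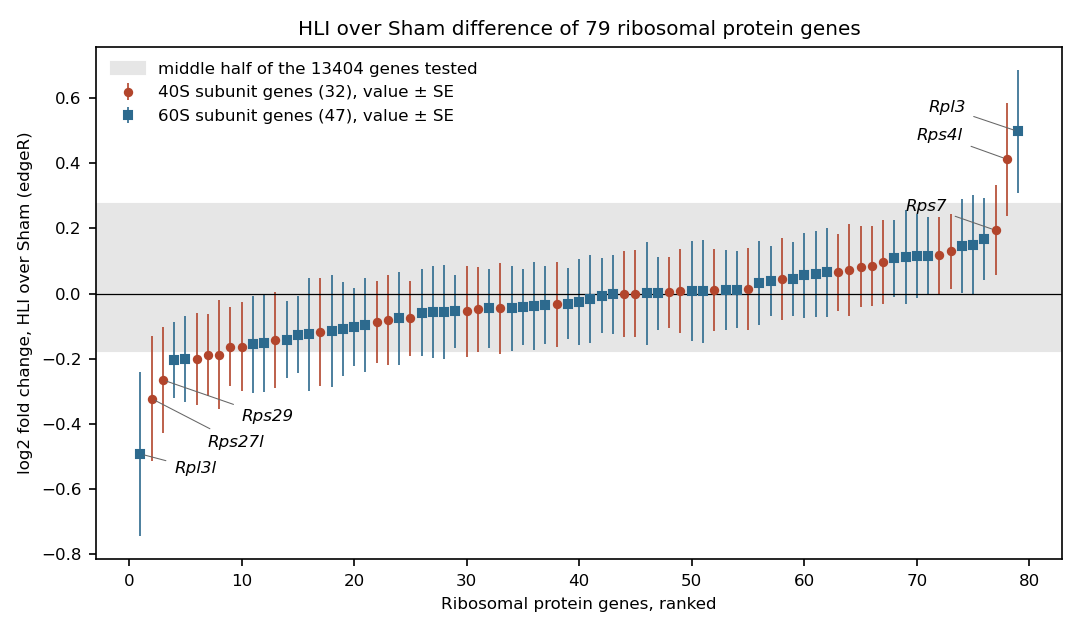
The 79 ribosomal protein genes ranked by their log2 fold change of HLI over Sham (vertical axis, edgeR fit, bars are the SE), with 40S genes as circles and 60S genes as squares, and a grey band for the interquartile range of the 13404 genes tested. Most members lie near 0, with Rpl3l at -0.49 at the left end and Rpl3 at 0.50 at the right end.

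The level of the family depended on the scale. Summed over the members, the deposited TPM made up 5.01%, 5.01%, 5.80%, 3.56% and 4.86% of the total in HLI replicates 1 to 5, and 4.78%, 3.97%, 3.71%, 4.64% and 4.23% in Sham replicates 1 to 5. HLI replicate 3 was the highest library and HLI replicate 4 the lowest, and the groups overlapped. The mean share was 4.85% ± 0.81 (SD, n = 5) in HLI and 4.27% ± 0.44 (SD, n = 5) in Sham, and the difference of 5826 TPM became 9043 TPM without HLI replicate 4 and 3455 TPM without HLI replicate 3. On unscaled log2(TPM + 1) the median member stood at 0.19 and 73 of 79 lay above 0, but the median of all genes stood at 0.19 too, which left the members 0.0069 above it. After quantile normalization of log2 CPM the median member stood at 0.08, with 61 above 0, and the median of all genes at -0.03. The members then lay 0.11 above all genes, where the TMM-scaled fit had them at -0.05 relative to all genes.

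On the TMM-scaled log2 CPM (counts scaled to library size), the median member's distance from its own mean over the 10 libraries was 0.03, 0.14, 0.01, -0.19 and 0.01 in HLI replicates 1 to 5, and 0.06, -0.11, -0.27, 0.26 and 0.08 in Sham replicates 1 to 5. The highest and the lowest value both belonged to Sham. In Sham replicate 4, 77 of 79 members lay above their own mean, and in Sham replicate 3, 78 lay below it. HLI replicates 2 and 4 formed a like pair, with 76 members above and 76 below.

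**Figure D2:**
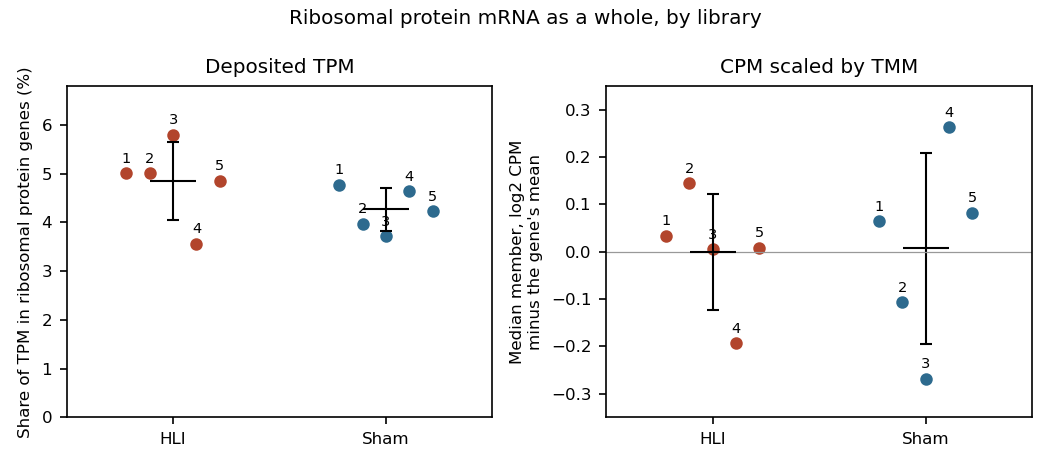
Summed ribosomal protein mRNA by library, as the percent of deposited TPM (left) and as the median member's log2 CPM relative to each gene's mean (right); points are libraries with their replicate number, and bars the mean ± SD. HLI and Sham overlap in both panels, and Sham replicates 3 and 4 span the range on the right.

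Most members varied together from library to library. A member's log2 CPM varied over the 10 libraries with a median SD of 0.19. Once the median member of each library was taken away, that SD was 0.09, and 73 of 79 members stayed under 0.2. The median SD of all genes tested was 0.30, and 0.25 for the genes at least as abundant as the lowest member, with nothing taken away. Rpl15, a core 60S protein gene, followed the median member closest, with an SD of 0.04. The 3 members that followed it least were Rpl3l at 0.56, Rpl3 at 0.38 and Rps4l at 0.28.

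**Figure D3:**
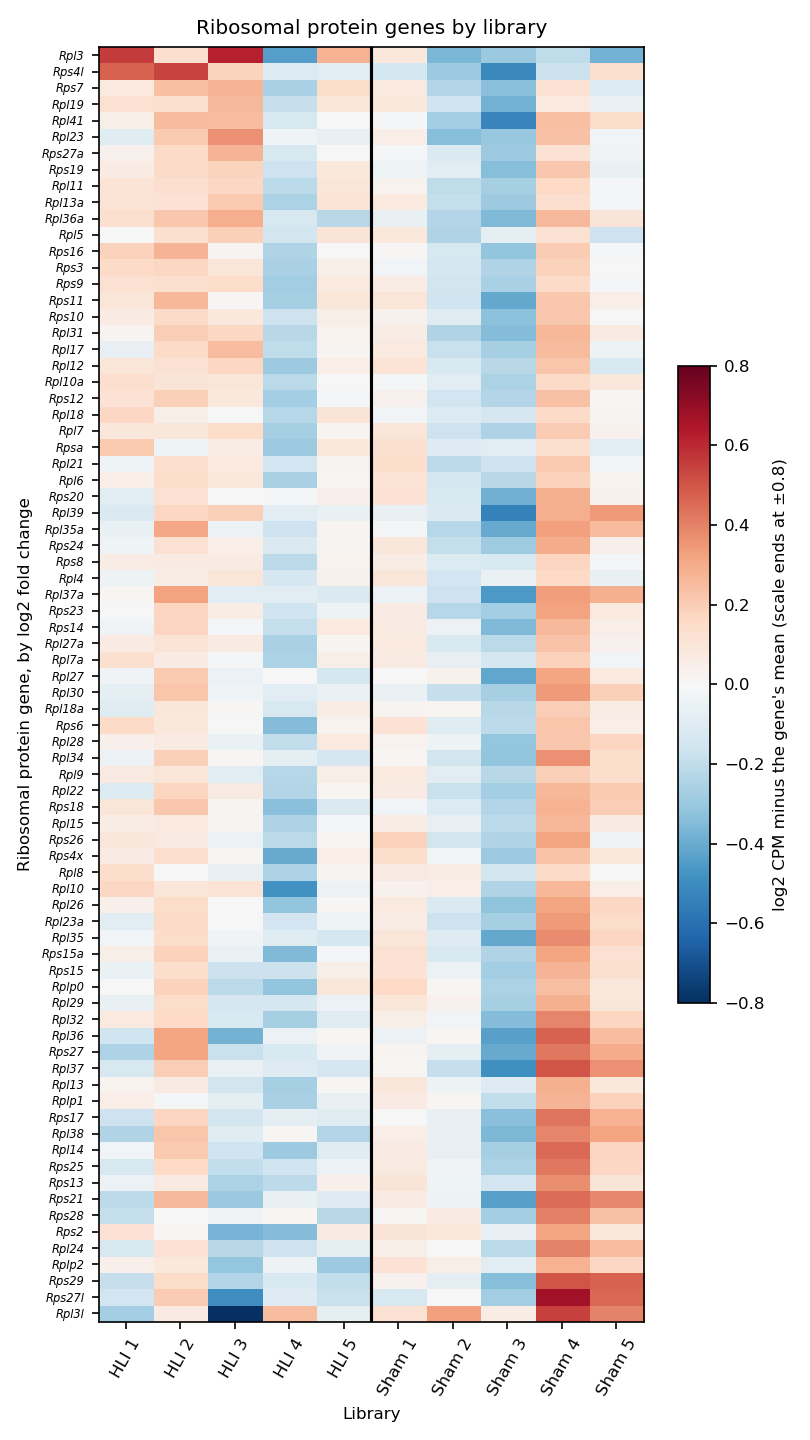
Log2 CPM of the ribosomal protein genes on the vertical axis, each minus its mean over the 10 libraries (colour, scale ending at ±0.8), with HLI libraries left of the black line and Sham libraries right of it, and genes ordered from the highest to the lowest log2 fold change. Sham replicate 3 is low and Sham replicate 4 high in nearly all genes, as HLI replicate 4 is low and HLI replicate 2 high. HLI replicates 1, 3 and 5 hold both colours. Rpl3 at the top and Rpl3l at the bottom depart most from the median member.

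Rpl3 encodes a 60S protein that reaches towards the site where peptide bonds form, and was the member with the highest fold change. It had 346, 257, 362, 173 and 285 CPM in HLI replicates 1 to 5, against 250, 183, 191, 204 and 181 CPM in Sham replicates 1 to 5. HLI replicate 4 was the lowest of all 10, and the other HLI libraries were higher than all 5 Sham libraries. The means were 285 ± 75.5 CPM in HLI and 202 ± 28.4 CPM in Sham (SD, n = 5 each), which gave a log2 difference of 0.50 with an SE of 0.19 (adjusted p = 0.29, edgeR). Leaving out HLI replicate 4 gave 0.62 (adjusted p = 0.081, edgeR). The value was 0.40 without HLI replicate 3 and 0.51 with both libraries numbered 1 left out.

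Rpl3l (ENSMUSG00000002500) stood at the other end of the family. It had 277, 350, 125, 397 and 317 CPM in HLI replicates 1 to 5, against 364, 420, 349, 489 and 440 CPM in Sham replicates 1 to 5. HLI replicate 3 was far below the rest, while HLI replicates 2 and 4 fell among the Sham values. The means were 293 ± 104 CPM in HLI and 412 ± 57.2 CPM in Sham (SD, n = 5 each), or -0.49 as a log2 fold change with an SE of 0.25 (adjusted p = 0.32, edgeR), which was -0.30 without HLI replicate 3 and -0.51 with both libraries numbered 1 left out.

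Set side by side per length, the paralogs exchanged rank between libraries. Rpl3l over Rpl3 in TPM was 0.79, 1.35, 0.35, 2.28 and 1.12 in HLI replicates 1 to 5, against 1.45, 2.33, 1.80, 2.38 and 2.45 in Sham replicates 1 to 5. Rpl3l exceeded Rpl3 in all 5 Sham libraries, and Rpl3 exceeded Rpl3l in HLI replicates 1 and 3. The mean log2 ratio was -0.01 ± 1.0 in HLI and 1.03 ± 0.33 in Sham (SD, n = 5 each), a difference of -1.04 (SE 0.47, exact two-sided permutation p = 0.032 over all assignments of 5 and 5 libraries, the smallest possible being 0.0079). This p is not adjusted, and the test was chosen with earlier results of these data known. The 2 genes are also the lowest and the highest member by fold change in these same libraries. In the edgeR fit 16.9% of all genes had an unadjusted p under 0.05. The exact p was 0.063 without HLI replicate 1. It was 0.071 on leaving out HLI replicate 3 or Sham replicate 2, and 0.079 without Sham replicate 4 or Sham replicate 5. Whichever library was left out, the exact permutation p lay between 0.0079 and 0.079. The difference was -0.67 without HLI replicate 3 and -1.34 without HLI replicate 4. With both libraries numbered 1 left out it was -1.09 (exact permutation p = 0.057 over 70 assignments, the smallest possible being 0.029). Rpl3l made up 50.0% ± 16.2 of the TPM of the pair in HLI and 67.0% ± 5.12 in Sham (SD, n = 5 each), while the pair together stood at 835 ± 79.8 TPM in HLI and 772 ± 47.8 TPM in Sham.

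Markers of other cells and of fibres differed between the same libraries. HLI replicate 3, which had the lowest Rpl3l and the highest Rpl3, also had the lowest sum of the 18 fast fibre markers, at 99145 TPM, and the highest sum of the 19 monocyte and macrophage markers, at 5153 TPM. HLI replicate 4, which had the lowest Rpl3, had 170319 TPM of fast fibre markers and 992 TPM of macrophage markers, the highest and the lowest of the HLI libraries. Over the groups the macrophage markers summed to 992 to 5153 TPM in HLI and 751 to 2120 TPM in Sham, with 0 of the 19 genes at 0 in every library, and the 16 markers of proliferating cells to 97.9 to 350 TPM in HLI and 68.7 to 129 TPM in Sham. Their part in the result was not tested. In bulk muscle RNA, fewer fibres and less RNA per fibre cannot be told apart.

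The translation elongation factor eEF1A, which brings aminoacyl-tRNA to the ribosome, has a muscle and nerve form, Eef1a2, that replaces Eef1a1 in fibres after birth. Neither gene is a member, but they form a like pair. Eef1a1 had 2970, 2708, 3840, 1636 and 2870 CPM in HLI replicates 1 to 5, against 2565, 1735, 1741, 1940 and 1704 CPM in Sham replicates 1 to 5. As with Rpl3, HLI replicate 4 was the lowest library and the other HLI libraries exceeded all 5 Sham libraries. The log2 fold change was 0.53 for Eef1a1 (SE 0.22, edgeR adjusted p = 0.29) and -0.44 for Eef1a2 (SE 0.20, edgeR adjusted p = 0.30). Eef1a2 over Eef1a1 in TPM was 0.28, 0.36, 0.14, 0.77 and 0.31 in HLI, against 0.44, 0.76, 0.60, 0.64 and 0.81 in Sham, so HLI replicates 1, 2, 3 and 5 lay below every Sham library and HLI replicate 4 within their range.

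**Figure D4:**
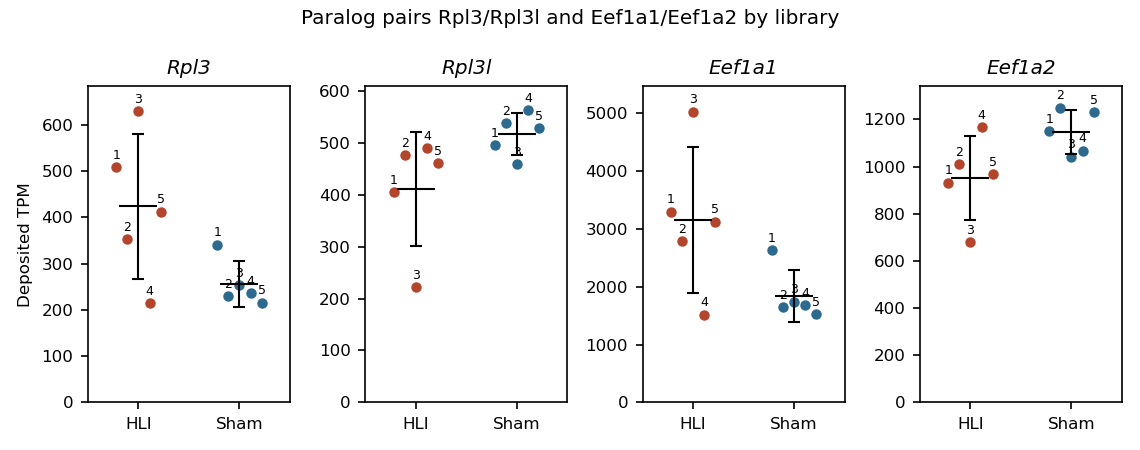
Deposited TPM of Rpl3, its muscle paralog Rpl3l, and the elongation factor genes Eef1a1 and Eef1a2 by library (points with replicate number; bars are the mean ± SD of 5). In HLI replicate 3 the general forms Rpl3 and Eef1a1 are highest and the muscle forms lowest, and HLI replicate 4 lies beside the Sham libraries in all 4 panels.

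Rps4l shares its name with Rps4x, which encodes a 40S protein, and GENCODE M21 lists Rps4l as a transcribed processed pseudogene. It was the least abundant member, at 15.9 ± 3.94 TPM in HLI and 10.3 ± 1.48 TPM in Sham (SD, n = 5 each), where Rps4x had 873 ± 186 TPM in HLI and 777 ± 93.4 TPM in Sham. Rps4l had 12.8, 13.4, 10.5, 8.55 and 8.64 CPM in HLI replicates 1 to 5, against 8.37, 7.51, 6.43, 8.18 and 10.1 CPM in Sham replicates 1 to 5. HLI replicates 1 to 3 lay above every Sham library and the other two within the Sham range. Its log2 fold change was 0.41 (SE 0.17, edgeR adjusted p = 0.29), and that of Rps4x was -0.05 (SE 0.14). The longest run shared by the longest transcripts of Rps4l and Rps4x was 38 bases.

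Rps27l, a paralog of Rps27 known as a p53 target, and Rps29, a small zinc-binding 40S protein gene, followed Rpl3l at the low end. Rps27l had 46.4 ± 8.03 CPM in HLI and 58.0 ± 16.7 CPM in Sham (SD, n = 5 each), or -0.32 as a log2 fold change with an SE of 0.19 (adjusted p = 0.36, edgeR) that was -0.19 without Sham replicate 4. Sham replicates 4 and 5, at 81.0 and 69.9 CPM, lay above the HLI range of 35.9 to 58.4 CPM, and Sham replicates 1 to 3 within it. Rps29 had 47.7 ± 5.36 CPM in HLI and 57.3 ± 14.4 CPM in Sham, or -0.26 as a log2 fold change with an SE of 0.16 (adjusted p = 0.37, edgeR), which was -0.18 without Sham replicate 4 or Sham replicate 5. Rps27 itself had a log2 fold change of -0.12 (SE 0.16). Dropping Sham replicate 3 gave -0.23 and dropping HLI replicate 2 gave -0.22, while dropping Sham replicate 4 gave -0.03, Sham replicate 5 gave -0.06 and HLI replicate 1 gave -0.07. Rps7, a 40S protein gene, followed Rpl3 and Rps4l at the top, at 0.19 (SE 0.14, edgeR adjusted p = 0.42), with 381 ± 52.4 CPM in HLI and 333 ± 44.9 CPM in Sham, and stood at 0.13 without Sham replicate 3.

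Across the 79 members the fold change had a Spearman correlation of 0.35 with relative transcript length, taken as counts per TPM, and of 0.13 across the 13404 genes. These points share the same 10 libraries, and the value is a description. The 6 members with the lowest relative length were Rps27, Rpl38, Rps28, Rpl36, Rps29 and Rps21, at 3.42 to 3.91 counts per TPM against a median of 7.23. Relative to the median member, all 6 were above their own mean in HLI replicate 4 and Sham replicates 2, 4 and 5, and below it in HLI replicates 1 and 3 and Sham replicates 1 and 3. Their SDs over the 10 libraries were 0.16 to 0.20.

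The proteins of the ribosomal stalk recruit elongation factors. Rplp0, its base, had 1002 ± 143 CPM in HLI and 1071 ± 133 CPM in Sham (SD, n = 5 each). The log2 fold changes of Rplp0, Rplp1 and Rplp2 were -0.10 (SE 0.14), -0.14 (SE 0.12) and -0.20 (SE 0.12), none called. Rpl5 and Rpl11, which with the 5S rRNA can bind MDM2 when ribosome assembly fails, stood at 0.11 (SE 0.12) and 0.12 (SE 0.12). Rps6, the substrate of the S6 kinases, stood at -0.03 (SE 0.13), with 412 ± 51.6 CPM in HLI and 422 ± 49.5 CPM in Sham. Rpsa, the 40S protein also named as a laminin receptor, stood at 0.01 (SE 0.13), and Rpl13a, which in human myeloid cells can leave the ribosome to silence inflammatory mRNAs, at 0.11 (SE 0.13). Rpl22, whose paralog is Rpl22l1, stood at -0.04 (SE 0.13), and Rpl39 at 0.01 (SE 0.16). Leaving out 1 library moved several of these values by over 1.5 times. Rpl11 stood at 0.06 and Rpl13a at 0.05 without Sham replicate 3, Rpl13a at 0.17 without HLI replicate 4, and Rpl5 at 0.06 without Sham replicate 2. Rplp0 stood at -0.18 and Rplp1 at -0.21 without Sham replicate 3, and dropping HLI replicate 2 put Rplp0 at -0.16. Rplp0 stood at -0.05 once HLI replicate 4 was dropped, and at -0.06 when HLI replicate 3 or Sham replicate 4 was. On unscaled log2(TPM + 1), where the median of all genes stood at 0.19, Rps6, Rplp0, Rplp1 and Rpl22 lay above 0. Rpsa and Rpl39 lay below 0 with DESeq2 size factors.

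Rpl39l, the paralog of Rpl39 known from testis, had too few counts to be a member or to be tested. It had 2, 0, 4, 2 and 1 counts in HLI replicates 1 to 5, against 9, 6, 5, 10 and 6 counts in Sham replicates 1 to 5. The groups did not overlap, but the gap was narrow in TPM, with 0.567 in HLI replicate 3 and 0.594 in Sham replicate 3. Among the 13404 genes tested, 0.873% had every HLI library below every Sham library in CPM. The highest value of Rpl39l was 1.38 TPM, in Sham replicate 1.

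Although the ribosome carries mostly a single copy of each protein, the mRNA levels differed widely between members. The mean over all libraries ran from 13.1 TPM in Rps4l to 1578 TPM in Rps2, a ratio of 121 that was 23.4 without Rps4l, with a median of 555 TPM, and 63 of 79 members lay between 200 and 1000 TPM. Rps2 and Rps24, which encode 40S proteins, and Rplp0 were the 3 most abundant members. Rps2 stood at 1582 ± 281 TPM in HLI and 1574 ± 108 TPM in Sham, Rps24 at 1568 ± 252.2 TPM in HLI and 1347 ± 182 TPM in Sham, and Rplp0 at 1443 ± 244 TPM in HLI and 1333 ± 153 TPM in Sham. After Rps4l, the lowest were Rps20 at 72.7 ± 9.32 TPM in HLI and 62.3 ± 9.23 TPM in Sham and Rps28 at 141 ± 19.0 TPM in HLI and 142 ± 12.5 TPM in Sham (SD, n = 5 in each group). Rps20, the lower gene in the ratio of 23.4, had 36.6 counts per TPM, against 9.93 for Rps2 and 3.72 for Rps28. Its low TPM therefore depends on the length assigned to it. In CPM, Rps20 had a mean of 138 in HLI and 137 in Sham, where Rps28 had 27.4 and 31.3. The log2 fold change was -0.20 (SE 0.14) for Rps2, 0.01 (SE 0.13) for both Rps24 and Rps20, and -0.19 (SE 0.13) for Rps28, none called. Rps28 stood at -0.12 without Sham replicate 4.

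Ribosomal protein genes have many processed pseudogenes, which bears on what their counts hold. A median of 34.5% of a member's runs of 50 bases recurred in the GENCODE M21 transcripts of some other gene, from 0% in Rpl3l to 85.5% in Rpl36a, and 20 members exceeded 50%. In 62 members none recurred in a gene of the deposited table. The estimated counts were whole numbers in all 10 libraries for 64 members, while 15 had counts with decimals. Rpl10 shared 73.7% of its runs with Rpl10-ps3. Rpl10-ps3 had 598 ± 142 TPM in HLI and 532 ± 38.3 TPM in Sham, close to Rpl10 with 709 ± 183 TPM in HLI and 630.0 ± 55.5 TPM in Sham (SD, n = 5 each). The log2 fold change was -0.05 for Rpl10-ps3 (SE 0.13) and -0.06 for Rpl10 (SE 0.14), and their values are uncertain, since the counting tool is not given and reads may be split between them.

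The ribosomal proteins left out by the symbol rule and given here lay within the range of the members, and all but Rpl36al within 0.2 of 0. The log2 fold change was 0.04 (SE 0.12) for Rps3a1, 0.11 (SE 0.12) for Fau, -0.04 (SE 0.13) for Rack1, -0.12 (SE 0.16) for Rpl22l1, -0.09 (SE 0.10) for Rpl7l1 and -0.23 (SE 0.11, edgeR adjusted p = 0.30) for Rpl36al. The 78 mitochondrial ribosomal protein genes, which serve the separate ribosome of the mitochondrion, had a median of -0.18 with 74 below 0, and 0 were called. The difference between the 2 families was not tested.

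Among the genes that build ribosomes and run translation, 0 were called in any list. Of 44 genes for rRNA synthesis and ribosome assembly 12 lay above 0 and 32 below, with a median of -0.11. Wdr12, part of the complex that matures the 60S subunit, had 19.1 ± 2.24 CPM in HLI and 25.5 ± 2.75 CPM in Sham (log2 fold change -0.41, SE 0.12), and Polr1b, a subunit of RNA polymerase I, had 14.1 ± 1.19 CPM in HLI and 18.5 ± 2.64 CPM in Sham (-0.39, SE 0.12). The edgeR adjusted p was 0.29 for both. Of 32 genes in the initiation list, initiation factor genes together with Pabpc1, 6 lay above 0 and 26 below, with a median of -0.10. Pabpc1, the poly(A)-binding protein gene and itself a TOP mRNA, had 249 ± 73.6 CPM in HLI and 156 ± 35.4 CPM in Sham (0.68, SE 0.21), and Eif1, a start codon selection factor, had 296 ± 71.9 CPM in HLI and 446 ± 64.8 CPM in Sham (-0.59, SE 0.19). The edgeR adjusted p was again 0.29 for each.

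Of 11 genes in the elongation list, which also holds Eef2k, Eef1e1 and Eif5, not elongation factors themselves, 4 lay above 0 and 7 below, with a median of -0.10. Eef2k, the kinase that slows elongation, had a log2 fold change of -0.41 with an SE of 0.16 (adjusted p = 0.29, edgeR). On unscaled log2(TPM + 1) it stood at 0.0016, where the median of all genes stood at 0.19. Of 19 measured genes that control TOP mRNAs and mTORC1, 7 lay above 0 and 12 below, with a median of -0.21. Rptor, the scaffold of mTORC1, had 41.5 ± 5.46 CPM in HLI and 50.8 ± 4.67 CPM in Sham (-0.29, SE 0.11), and the MYC antagonist Mxi1 had 43.1 ± 3.64 CPM in HLI and 52.6 ± 5.10 CPM in Sham (-0.29, SE 0.10), each with an edgeR adjusted p of 0.29.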

How the data were processed

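The authors deposited 1 table of 21956 genes that gives estimated counts and TPM for each library, per the file headers. The counts are not normalized, and TPM sums to 1000000 in each library. HISAT2 2.0, Bowtie 0.12.2 and the build mm8 appear, with no role, in the submitters' processing notes. The sources used here do not give the counting tool, annotation or strand setting. The labels' protocol and the series text differ on reagent and company, so the extraction is uncertain.

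Counts were rounded and tested in R 4.3.3 with edgeR 4.0.16 (TMM, filterByExpr at 10 counts and 15 in total, quasi-likelihood test, HLI against Sham, no covariate). SE is the log2 fold change over the square root of F. Log2 CPM used a prior count of 2. Totals limit precision as given in the report. Alternatives used limma 3.58.1, DESeq2 1.42.0 and the settings given in the closing section. On simulated counts for 13404 genes, 74% of 2-fold and 98% of 4-fold changes were recovered, with 100 genes changed by each. The simulation drew every gene independently, with a single common dispersion (a biological coefficient of variation of 0.25). In the real libraries genes differ in spread and vary together, so these shares do not measure the power of the test here.

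Members, lists and tests were chosen with earlier results of these data known. Named genes are fixed members, the 3 highest and 3 lowest by fold change, by TPM and, for departure from the median member, the top 3, and the 2 genes of each list with the smallest p. The others (the 6 shortest members, Rpl6, Rpl15, Rpl35, Rpl36a, Rpl10-ps3 and genes outside the symbol rule) were chosen after their values were seen. Rps27l, first listed as outside the symbol rule, meets it. Single values of some genes are not reported here.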

Additional observations from a re-analysis of the deposited data

Results flagged for a closer look

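In 70 groups of 5 libraries, 5 held a library far from the other 4 by Dixon's criterion, which chance meets in about 1 group of 20. HLI replicate 4 was low for 3 members: Rps4x at 330 CPM, with the other HLI libraries at 441 to 480 CPM, Rpl13a at 309 CPM, with the others at 396 to 424 CPM, and Rpl11 at 148 CPM, with the others at 184 to 194 CPM. These flags are not independent, since 76 members lay below their own mean in HLI replicate 4 and 3 above. HLI replicate 2 was high for Rps29, at 57.0 CPM, with the others at 43.8 to 47.3 CPM. Sham replicate 1 was high for the elongation factor gene Eef1a1, at 2565 CPM, with the other Sham libraries at 1704 to 1940 CPM.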

How the results depend on the processing

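The count of called members was 0 under every alternative run. The count of all genes called, 0 with edgeR, was 42 with DESeq2 and 54 with both libraries numbered 1 left out. The median log2 fold change of the members was 0.19 by limma on log2(TPM + 1) and on log2(TPM + 0.1), and -0.11 to 0.03 when 1 library was left out. The Rpl3l to Rpl3 log2 ratio differed by -1.34 to -0.67 when 1 library was left out, by -1.09 (exact permutation p = 0.057) with both libraries numbered 1 left out, and by -1.04 with replicate numbers as a block (exact sign-flip p = 0.0625, the smallest it allows). Correlations of same-numbered libraries' deviations ran from -0.009 to 0.28, so the numbers were not taken as pairs, and the block called 0 genes (2986 at an unadjusted p under 0.05). For each of these, the cause was not tested.

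Over all members, 36 lay above 0 in the main fit, 73 on log2(TPM + 1) and 61 after quantile normalization. Among the genes named by fixed criteria, the only ones listed here, the sign of the log2 fold change turned for Eef2k and for members near 0. Without the filter on low counts it was -0.00658 for Rpl39, -0.00240 for Rps20 and -0.00498 for Rps24. With DESeq2 size factors in edgeR it was -0.0114 for Rpl39, -0.00186 for Rpsa, -0.00653 for Rps20 and -0.00908 for Rps24. DESeq2 itself gave -0.0112 for Rpl39, -0.00184 for Rpsa, -0.00642 for Rps20 and -0.00902 for Rps24. On log2(TPM + 1) it was 0.131 for Rpl10, 0.145 for Rps4x, 0.206 for Rpl22, 0.0964 for Rps27, 0.165 for Rps6, 0.102 for Rplp0, 0.0642 for Rplp1 and 0.00164 for Eef2k. On log2(TPM + 0.1) it was 0.131 for Rpl10, 0.145 for Rps4x, 0.207 for Rpl22, 0.0966 for Rps27, 0.165 for Rps6, 0.102 for Rplp0, 0.0642 for Rplp1 and 0.00214 for Eef2k. After quantile normalization it was 0.0341 for Rpl10, 0.0394 for Rps4x, 0.0204 for Rpl22, 0.0564 for Rps6 and 0.0952 for Rplp0. The median of all genes tested was itself 0.185 on log2(TPM + 1) and 0.214 on log2(TPM + 0.1), so those scales were shifted as a whole. Rpsa stood at -0.00782 on TPM scaled by median of ratios and at -0.00448 with both libraries numbered 1 left out. Leaving out 1 library gave -0.129 to 0.0316 for Rpl10, -0.115 to 0.0956 for Rpl39, -0.137 to 0.0182 for Rps4x, -0.123 to 0.00404 for Rpl22, -0.0958 to 0.0310 for Rps6, -0.0397 to 0.0718 for Rpsa, -0.0822 to 0.0755 for Rps20 and -0.0665 to 0.0761 for Rps24.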
